A study of Ambystoma mexicanum with 6 samples.

Results

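Accessible chromatin was compared between systemically activated and intact limbs of the axolotl (Ambystoma mexicanum), in wild-type animals. The data were peak lists from ATAC-seq of 4C cells, that is, sorted cells with the doubled DNA content found after replication and before division. The systemically activated group held 2 libraries from limb tissue at 14 days post-amputation, called systemically activated 4 and 5 here. The intact group held 2 libraries from homeostatic limb tissue, called intact 1 and 2. Each library was made from 10000 live 4C cells. These 4 of the 6 libraries in the series were chosen by their labels alone, and the remaining 2 came from blastema with wound epidermis. The 4 lists held 5139 of 5645 peaks, and joining all peaks that overlapped by 1 bp or more gave 3522 sites, against 3529 sites when the blastema lists were joined as well. The letters CTL in the titles of systemically activated samples are not explained. The labels give neither the number of animals behind a library nor the cell types in it. The lists hold positions without gene names, so the limb identity could not be checked against marker genes.

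An axolotl regrows an amputated limb from a blastema, a mound of proliferating progenitor cells under a wound epidermis. Amputation also brings cells in uninjured parts of the body back into the cell cycle, a response named systemic activation, which the title of the series ties to adrenergic signalling and to stem cells. ATAC-seq uses the Tn5 transposase to cut and tag DNA where nucleosomes leave it exposed, which is typical of promoters, enhancers and other regulatory elements. The comparison asks whether dividing cells of a systemically activated limb have other accessible regions than dividing cells of a limb at homeostasis. In a bulk sample, a change within cells and a change in the mix of cell types cannot be told apart.

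Systemically activated limbs had more peaks than intact limbs, and the excess lay among peaks with a −log10 q under 3 at the summit. The lists held 1389 and 2962 peaks in systemically activated 4 and 5, against 305 and 483 peaks in intact 1 and 2. Mean log2 peak number was higher by 2.40 in systemically activated libraries, and the groups did not overlap (exact permutation test over the 6 assignments of 4 libraries, 2-sided, p = 0.333). That is the smallest p this design can give, so no such test here can reach 0.05, and it measures only the spread between these libraries, which may be technical. At a −log10 q of at least 2 at the summit there were 494 and 793 peaks in systemically activated libraries and 258 and 342 in intact libraries. At a −log10 q of at least 3 there were 153 and 144 peaks in systemically activated libraries and 161 and 147 in intact libraries, so the groups overlapped. At a −log10 q of at least 5 the order was the other way round, with 65 and 57 peaks in systemically activated libraries and 83 and 74 in intact libraries. These q values are not scaled between libraries. At the 180 sites with a peak in all 4 lists, the median −log10 q was 4.17 and 3.94 in systemically activated libraries and 4.64 and 4.40 in intact libraries. A fixed threshold thus need not be the same cut in both groups. Read depth, which bears on how many weak peaks pass a threshold, is unknown since no read numbers come with the peaks, and its part in the number of peaks was not tested.

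Most sites were listed in 1 library. Among the rest, a small set was listed in all 4 libraries and a larger set in both systemically activated libraries and neither intact library. A peak was present in all 4 lists at 180 sites, in systemically activated 4 and 5 but in neither intact list at 635 sites (18.0% of 3522, Wilson 95% interval 16.8 to 19.3), and in both intact and neither systemically activated library at 18 sites (0.511%). These intervals cover counting error only. A further 2478 sites (70.4%) had a peak in 1 library, and 1950 of those were in systemically activated 5. Systemically activated 4 and 5 had 909 sites in common, of which 274 (30.1%, 27.2 to 33.2) had a peak in an intact library. Intact 1 and 2 had 219 in common, of which 201 (91.8%, 87.4 to 94.7) had a peak in a systemically activated library. The intact libraries did not share equally in this, since 84 sites were in both systemically activated libraries and intact 2 alone and 10 were in both and intact 1 alone. Counts of this kind depend on how many lists must hold a site: without systemically activated 4 there were 2591 sites with a peak in systemically activated 5 and in no intact list, and without systemically activated 5 there were 1071 of the same kind in systemically activated 4. Without intact 1 there were 106 intact sites, without intact 2 there were 44, and without systemically activated 5 there were 30.

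**Figure D1:**
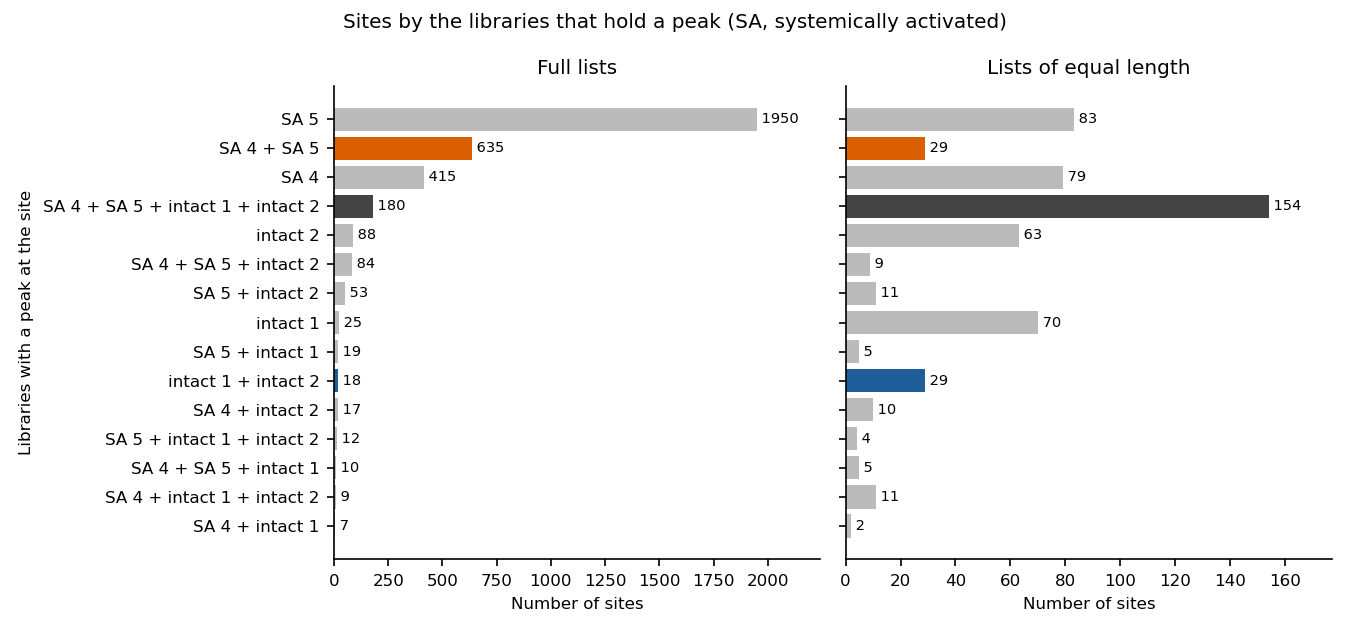
Number of sites (horizontal axis, from 0) for each combination of libraries with a peak, in full lists (left, 3522 sites) and in lists of 305 peaks each (right, 564 sites). Orange marks sites of systemically activated 4 and 5 without an intact peak, blue the opposite and dark grey all 4. The orange and blue bars stand at 635 and 18 sites on the left and at 29 and 29 on the right.

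With lists of equal length there were as many intact as systemically activated sites. Each list was cut to the 305 peaks with the highest signal value, the authors' measure of peak area, 305 being the length of the list of intact 1. This gave 564 sites, of which 154 were in all 4 lists. There were 29 sites in systemically activated 4 and 5 without an intact peak (5.14%) and 29 in the opposite arrangement (also 5.14%). Systemically activated lists had 197 sites in common, of which 168 (85.3%, 79.7 to 89.6) were in an intact list, and intact lists had 198 in common, of which 169 (85.4%, 79.8 to 89.6) were in a systemically activated list. Lists of one length hold the same number of peaks by construction, which brings the counts and shares of both arrangements together, so this balance is no finding about the groups. The sets of 29 also differ in kind. Of the 18 intact sites of full lists, only 10 ranked among the first 305 in both intact lists. Most of the 29 intact sites thus had a peak in a full systemically activated list. Of the 635 systemically activated sites, 24 ranked among the first 305 in both systemically activated lists. Ranking by −log10 p in place of area gave 18 and 29 sites, and the 200 highest peaks of each list gave 12 and 14. In equal lists, 65.9% of the peaks of systemically activated 4 overlapped one of systemically activated 5, and 57.7% and 62.0% overlapped one of intact 1 and intact 2. Of the peaks of intact 1, 72.1% overlapped one of intact 2, and 63.6% and 62.0% overlapped one of systemically activated 4 and 5. For systemically activated 5 the share was 66.2% with its replicate and 56.7% and 59.7% with intact 1 and 2, and for intact 2 it was 68.5% with its replicate and 64.6% and 62.0% with systemically activated 4 and 5. Each equal list thus shared more peaks with its replicate than with either list of the other group. In full lists, which differ in length, this held for systemically activated 4 and 5 but not for the intact libraries. Of all peaks of intact 1, 78.7% overlapped intact 2, and 75.1% and 80.3% overlapped systemically activated 4 and 5. For intact 2 the shares were 47.6% with intact 1 and 63.1% and 72.3% with systemically activated 4 and 5.

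Most of the 635 systemically activated sites were modest peaks. Their median rank was 676 of 1389 in systemically activated 4 and 980 of 2962 in systemically activated 5. Only 24 of them ranked among the first 305 in both lists, 89 did so in systemically activated 4 and 70 in systemically activated 5. The best rank of any was 110 in systemically activated 4 and 120 in systemically activated 5. At the 180 sites of all 4 lists the median rank in the same lists was 90.5 and 92.5. The 2 systemically activated libraries ordered the 635 sites differently, with a Spearman correlation of peak area across sites of 0.32, against 0.92 across the 180 sites. Sites are not independent replicates, and these correlations are descriptions. The summits of the strongest peaks lay a median of 34 bp apart at the 635 sites, and 15 bp apart at the 180 sites. Summits lay within 50 bp of each other at 370 of 635 sites (58.3%) and at 124 of 180 sites (68.9%). These values were not particular to systemically activated sites. At the 18 intact sites the correlation between intact 1 and 2 was 0.37. Summits there lay a median of 33 bp apart, and within 50 bp at 10 of 18 sites (55.6%).

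The systemically activated sites with the highest ranks were as follows, in the coordinates of the lists, whose genome build is not given in the sources used here. Long arms are divided in the lists into segments numbered from 0, and positions are counted from 1 within a segment. The site on arm 12q, segment 0, from 209877257 to 209878045 had peak areas of 468 and 386 in systemically activated 4 and 5, at ranks 110 and 120. No peak was listed there in intact 1 or intact 2. On arm 5q, segment 2, the site from 348893938 to 348894208 had areas of 302 and 159 in the systemically activated lists, at ranks 130 and 239. It was the narrowest of the 10 strongest sites, at 271 bp, and its −log10 q of 3.57 and 2.60 was higher than that of the 12q site at 2.98 and 2.52. The widest, at 1047 bp, lay on arm 7q, segment 1, from 190849895 to 190850941, with areas of 184 and 258. Of the 10 strongest sites 4 lay on arm 12q. Besides the first, they were in segment 1 from 333672140 to 333673074 (areas 209 and 248), from 356617830 to 356618491 (223 and 174) and from 246783124 to 246783569 (194 and 141). The others lay on 6p, 1p, 3q and 6q, with areas between 142 and 247 in both lists. All of the 10 strongest sites had smaller areas than the typical site of all 4 lists. The median area of those shared sites was 728 and 621 in systemically activated libraries and 873 and 790 in intact libraries.

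The 18 intact sites were few and lay partly on unplaced scaffolds. On arm 11p the site from 99978419 to 99978689 had areas of 163 and 290 in intact 1 and intact 2, at ranks 179 and 137. No peak was listed there in either systemically activated library. A second site on 11p, from 304404972 to 304405755, had areas of 271 and 101. Next came 2 sites on unplaced scaffold C0123164, from 14368 to 14952 (areas 194 and 129) and from 11647 to 11885 (areas 127 and 54.4). There were 5 of 18 intact sites on unplaced scaffolds (27.8%), against 24 of 635 systemically activated sites (3.78%). Among the equal lists the strongest intact site lay on arm 8p, segment 1, from 187175883 to 187176299, with areas of 492 and 242. The full list of systemically activated 5 also held a peak there, and the full list of systemically activated 4 did not. The intact site of the equal lists on 7p, segment 1, from 266731752 to 266732001 had a peak in both full systemically activated lists.

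Few systemically activated sites, and most of the 18 intact sites, lay near a site of all 4 lists. Within 100 kb of a site of all 4 lists lay 13 of 635 systemically activated sites (2.05%, Wilson 1.20 to 3.47) and 12 of 18 intact sites (66.7%, 43.7 to 83.7). Within 10 kb there were 12 of 635 (1.89%) and 7 of 18 (38.9%). With equal lists the shares within 100 kb were 2 of 29 (6.90%, 1.91 to 21.96) and 17 of 29 (58.6%, 40.7 to 74.5). Most of those 29 intact sites had a peak in a full systemically activated list. Where peaks up to 500 bp apart were also joined, in full lists, the shares within 100 kb were 0.821% and 57.1%. Sites of a single intact list differed in this. In full lists 17 of 25 sites of intact 1 alone (68.0%) lay within 100 kb, and 12 of 88 sites of intact 2 alone (13.6%). Sites of a single systemically activated list had low shares as well. They were 12 of 415 (2.89%) for systemically activated 4 alone and 22 of 1950 (1.13%) for systemically activated 5 alone. No site of all 4 lists lay on the same sequence for 302 of the 635 systemically activated sites and 3 of the 18 intact sites. The arrangement of sites is defined by the lists themselves, so these shares are given as a description, with no test. A run is used here for sites whose neighbours lie within 100 kb. The 635 systemically activated sites formed 593 runs and 554 of them (87.2%) were alone, whereas the 180 sites of all 4 lists formed 108 runs with 70 sites (38.9%) alone. Lying alone also held for 84.0% of sites of intact 1 alone, 93.2% of sites of intact 2 alone and 61.1% of the 18 intact sites. Runs were formed within each class, so sites of a small class tend to lie alone by construction. These small classes therefore cannot show whether the 635 sites were unusually isolated.

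The longest runs of systemically activated sites held 3 sites. They lay on arm 12q, segment 1, from 333672140 to 333684539, on arm 2q, segment 0, from 40022300 to 40031374, and on arm 3p, segment 0, from 270842599 to 270843264. The 12q run spanned 12.4 kb and contained 3 and 4 peaks of systemically activated 4 and 5, with none in intact 1 or intact 2. Next were runs of 2 sites on arm 3q, segment 3, from 350915663 to 350924891, where intact 2 also had 2 peaks, and on 12q, segment 1, from 356617335 to 356618491. Runs of sites found in all 4 lists were longer. The longest, on arm 5q, segment 0, from 58602429 to 58687642, held 12 sites, with 15 and 14 peaks in systemically activated 4 and 5 and 15 and 16 in intact 1 and intact 2. A run of 7 sites lay on 3p, segment 1, from 259785883 to 259882708, one of 5 sites on 13q from 20670006 to 20790967, and runs of 4 sites on 9q, segment 2, from 305200823 to 305256645 and on 5p, segment 1, from 229178820 to 229190727. Each of these 5 runs held nearly the same number of peaks in every library, differing by at most 2. Such runs are made of sites with a peak in every list, so each library holds at least as many peaks as sites by construction. This likeness is therefore no finding about the groups.

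**Figure D2:**
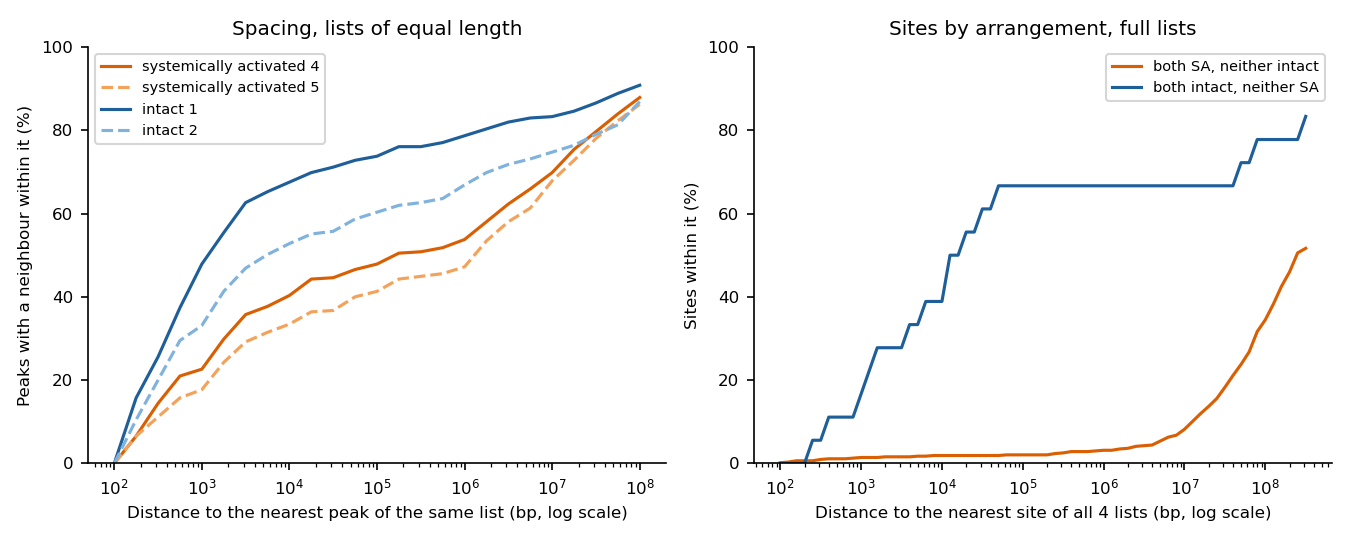
Left, the share of peaks (vertical axis, %) with another peak of the same list within a given distance (bp, log axis), in lists of 305 peaks each. At 10 kb the systemically activated lists stand at 40.3% and 33.4%, the intact lists at 67.5% and 52.8%. Right, the share of sites within a given distance of a site of all 4 lists, where sites on a sequence without such a site stay in the denominator; at 100 kb it is 2.05% for the 635 systemically activated sites and 66.7% for the 18 intact sites.

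Peaks of systemically activated lists had close neighbours less often than peaks of intact lists. In lists of equal length, 40.3% and 33.4% of peaks in systemically activated 4 and 5 had another peak of their list within 10 kb, against 67.5% and 52.8% in intact 1 and intact 2. The difference was −23.3 percentage points and the groups did not overlap (p = 0.333 by the same exact test over 6 assignments). Systemically activated lists broke up into 215 and 225 runs of peaks within 100 kb, and intact lists into 149 and 179. Peaks alone in their run made up 52.1% and 58.7% of the systemically activated lists and 26.2% and 39.7% of the intact lists. Merging peaks within 500 bp of each other, so that a site listed in pieces counts once, gave 27.6% and 23.5% in systemically activated lists and 49.8% and 36.9% in intact lists. With the 200 highest peaks of each list the difference was −13.5 points, and in full lists it was −23.3 points. The lists of equal length reached down to an area of 88.4 and 129 in systemically activated 4 and 5. In intact 1 and intact 2 they reached down to 21.0 and 40.8. Weak peaks beside stronger ones could thus be cut from systemically activated lists and kept in intact lists. With nothing cut, the shares within 10 kb were 33.8% and 31.8% in systemically activated 4 and 5, lower than after the cut. In intact 1 and intact 2 they were 67.5% and 44.7%. The part of such cut peaks in these shares was not tested.

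In full lists, systemically activated peaks reached more chromosome arms than the fewer intact peaks. All 28 arms held a peak in both systemically activated lists, against 25 and 27 arms in intact 1 and intact 2. On arm 10q there were 16 and 29 peaks in systemically activated libraries and none in either intact library, and in lists of equal length there were 2 and 1 in systemically activated libraries and again none in intact libraries. The share of a list on an arm followed the observed length of the arm, taken as the end of its last peak in any of the 4 lists. To place segments on an arm, the last number in the name of a segment was taken as its start on the arm, which no source used here states, and all lengths of arms given here rest on that. Across the 28 arms the Spearman correlation of share with length was 0.85 and 0.88 in systemically activated lists, and 0.53 and 0.61 in intact lists. With equal lists it was 0.67 and 0.64 in systemically activated lists, and 0.53 and 0.62 in intact lists, so that intact 2 and systemically activated 5 were close. For the 635 systemically activated sites it was 0.81, with every arm represented, and for the 180 sites of all 4 lists it was 0.57, with 7 arms empty. These correlations are descriptions, and all of them share the lengths estimated from the same peaks.

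Arm 3q differed most between the groups. It held 144 and 291 peaks in systemically activated 4 and 5, or 10.4% (Wilson 8.87 to 12.1) and 9.82% (8.80 to 10.9) of the lists, against 10 and 18 peaks in intact 1 and intact 2, or 3.28% (1.79 to 5.93) and 3.73% (2.37 to 5.81). The difference of 6.59 percentage points was the largest of any arm in either direction, and 3q made up 5.77% of the summed observed length of the arms. Cut to 305 peaks, the shares on 3q were 6.56% and 4.92% in systemically activated libraries and 3.28% and 2.62% in intact libraries, a difference of 2.79 points, again the largest. Outside the sites of all 4 lists they were 11.6% and 10.4% in systemically activated libraries and 3.96% and 4.53% in intact libraries. Of the 635 systemically activated sites 77 (12.1%, 9.81 to 14.9) lay on 3q, where 4 sites of all 4 lists and no intact site were found. Segment 3, the last of the arm in the lists, held 38 of the 77 sites, and segments 0, 1 and 2 held 15, 15 and 9. Segment 3 had 71 and 121 peaks in systemically activated libraries and 6 and 14 in intact libraries.

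The next largest differences were on 4q and 2q in favour of systemically activated libraries and on 7q, 5q and 1q in favour of intact libraries. Arm 4q held 3.82% and 3.98% of systemically activated peaks and 0.656% and 2.07% of intact peaks, and arm 2q held 5.26% and 6.28% against 3.93% and 4.14%. Cut to 305 peaks, 4q kept its direction, with 2.95% and 3.28% in systemically activated libraries and 0.656% and 1.97% in intact libraries, while on 2q the groups overlapped. Arm 7q held 3.67% and 2.84% of systemically activated peaks and 9.84% and 6.21% of intact peaks. Arm 5q, which carries the run of 12 sites, held 3.74% and 3.71% against 9.84% and 6.42%, and arm 1q held 5.83% and 5.54% against 8.20% and 8.90%. On all of 7q, 5q and 1q the groups still did not overlap in lists of equal length, with differences of −2.13, −2.46 and −1.64 points. Outside the sites of all 4 lists, however, the groups overlapped on 5q and on 1q. The shares there were 2.59% and 3.25% against 7.92% and 3.14% on 5q, and 5.18% and 5.27% against 4.95% and 9.06% on 1q. On 7q, 4q and 2q the groups did not overlap outside these sites, and the direction was kept.

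Over the 28 arms and the unplaced scaffolds as a further class, the shares of the groups did not overlap in 20 of 29 classes. Systemically activated shares were higher in 12 of them (41.4%) and intact shares in 8 (27.6%). Among equal lists there were 9 (31.0%) and 9 (31.0%). By covered base pairs in place of peaks the groups did not overlap in any class, with 17 (58.6%) higher in systemically activated libraries and 12 (41.4%) higher in intact libraries. If library labels did not matter, a fraction of about 0.333 of classes would be expected not to overlap. Shares of a list add up to a fixed whole, so classes are not independent of each other, and an exact permutation test of a single arm cannot go below p = 0.333. The sites of all 4 lists weighed differently in each list, with 13.8% and 6.52% of the peaks and 37.3% and 18.2% of the covered base pairs in systemically activated 4 and 5, against 66.9% and 40.6% of the peaks and 86.1% and 73.9% of the covered base pairs in intact 1 and intact 2.

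**Figure D3:**
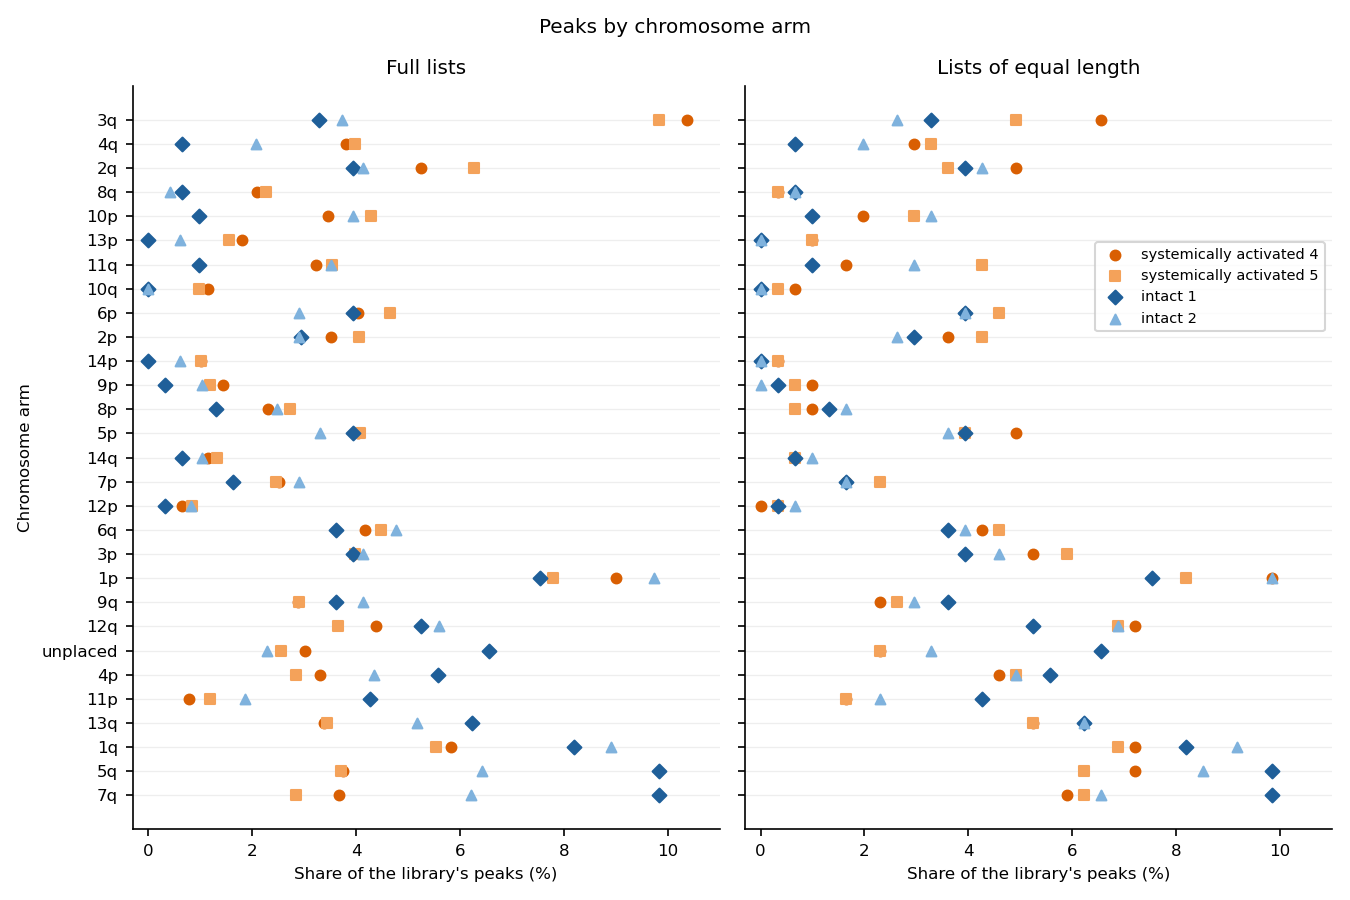
Share of each library's peaks (horizontal axis, %) on each chromosome arm and on unplaced scaffolds (vertical axis, ordered by the difference between the groups in full lists), in full lists (left) and in lists of 305 peaks each (right). Each symbol is 1 library. On 3q, at the top, the systemically activated libraries stand at 10.4% and 9.82% and the intact libraries at 3.28% and 3.73% on the left, and at 6.56% and 4.92% against 3.28% and 2.62% on the right.

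Whether systemically activated peaks were wider or narrower depended on which peaks were compared. In full lists the median width was 199 bp and 223 bp in systemically activated 4 and 5, and 305 bp and 209 bp in intact 1 and intact 2. The groups overlapped, with a difference in mean log2 median width of −0.26 (exact permutation test, 2-sided, p = 0.667), which was 0.011 without intact 1. Peaks of 500 bp or more made up 8.28% and 7.80% of systemically activated lists and 28.9% and 19.3% of intact lists, although their number was higher in systemically activated libraries, at 115 and 231 against 88 and 93. In lists of equal length the direction turned and the groups did not overlap. Area grows with width, and the cut by area removed most systemically activated peaks and none of intact 1, so the cut itself favours wide systemically activated peaks and this comparison does not show that peaks of that group were wider. Peaks of systemically activated 4 and 5 then had median widths of 415 bp and 514 bp, against 305 bp and 297 bp for intact 1 and 2, a log2 difference of 0.62 (p = 0.333 by the same exact test). The lists of 305 peaks reached down to an area of 88.4 and 129 in systemically activated 4 and 5, and of 21.0 and 40.8 in intact 1 and intact 2.

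At one and the same sites, systemically activated peaks were slightly wider. Over the 180 sites of all 4 lists the median covered length of a site was 514 bp and 556 bp in systemically activated 4 and 5, against 473.5 bp and 467.5 bp in intact 1 and 2. The median log2 difference per site was 0.13, a ratio of 1.10, with quartiles of −0.0026 and 0.37. The covered length was greater in both systemically activated than in both intact libraries at 91 sites (50.6%) and smaller at 15 sites (8.33%), and the groups overlapped at 74. A fraction of about 0.333 of sites in both directions together would be expected not to overlap if library labels did not matter. All sites share the same 4 libraries, so they are not independent and are no replicates of a group. By library, the log2 difference in the median width of the widest peak at these sites was 0.20. Its p was 0.333 (exact permutation test, 2-sided), the smallest this design can give. Some sites were listed as several peaks in 1 library. This was so at 12 and 12 of the 180 sites in systemically activated 4 and 5, and at 23 and 15 sites in intact 1 and intact 2. The widest peak was much the same everywhere, at 5058 bp and 5050 bp in systemically activated 4 and 5, against 5017 bp and 5035 bp in intact 1 and 2. Among classes of sites, the median width was 310 bp (quartiles 214 and 430.5) for the 635 systemically activated sites, 239 bp for the 18 intact sites and 634.5 bp for the 180 sites of all 4 lists.

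**Figure D4:**
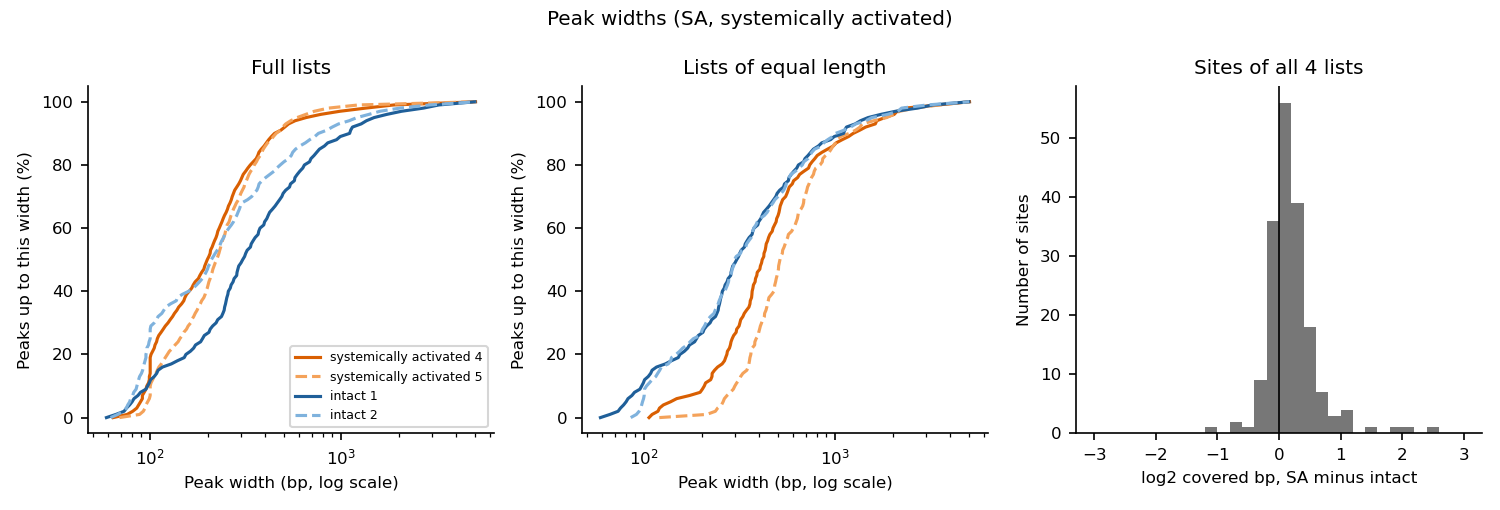
Left and middle, the share of peaks (vertical axis, %) up to a given width (bp, log axis) in full lists and in lists of 305 peaks each, 1 curve per library. Right, the number of sites of all 4 lists by the log2 difference in covered bp, systemically activated minus intact. The medians are 199 bp and 223 bp (systemically activated) and 305 bp and 209 bp (intact) on the left, and 415 bp and 514 bp against 305 bp and 297 bp in the middle.

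At the sites open in both conditions no difference in peak area passed the test. Areas are not scaled between libraries, so log2 areas at the 180 sites of all 4 lists were quantile normalised, which leaves the order of the sites in each library as the quantity compared, and tested with limma. No site had an adjusted p under 0.05 (Benjamini-Hochberg over the 180 sites, 0 called, 0.0%), and 37 sites had an unadjusted p under 0.05. The smallest adjusted p was 0.116. Normalised areas did not overlap between the groups at 50 sites that were higher in systemically activated libraries (27.8%) and 46 that were lower (25.6%). If library labels did not matter, a fraction of about 0.333 of sites in both directions together would be expected not to overlap. The sites share the same 4 libraries and are not independent of each other. In simulated data with the residual spread of these libraries, an SD of 0.56 on the log2 scale, the same test found 3.50% of sites changed by 1 log2 unit, 49.0% of those changed by 2 and 88.8% of those changed by 3. The simulation gave every site the same spread. In the real fit limma had a median of 3.11 total degrees of freedom a site, so it borrowed little between sites, as where spread differs. These shares are thus likely too high and do not describe the real test. Even so, differences of 1 log2 unit were mostly not detectable with 2 libraries a group.

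The sites with the smallest p values give the scale of what was seen. On 7p, segment 1, the site from 266731752 to 266732001 had areas of 21.8 and 40.9 in systemically activated libraries and 177 and 197 in intact libraries. Its log2 difference was −2.80 (SE 0.26, limma adjusted p = 0.116), and it ranked 180 and 178 of the 180 sites in systemically activated libraries against 150 and 141 in intact libraries. The site on 9q, segment 2, from 305255570 to 305255971, within the 9q run named above, had areas of 71.1 and 105 in systemically activated libraries and 288 and 208 in intact libraries, a log2 difference of −1.73 (SE 0.17). On 7q, segment 2, the site from 355025474 to 355025736 had areas of 32.3 and 30.5 in systemically activated libraries and 149 and 87.6 in intact libraries. No list held an area under 20.0, so values such as 21.8 at the 7p site and 32.3 and 30.5 at the 7q site lay near that limit. The other 2 sites with lower values in systemically activated libraries were on 1q, segment 2, from 324337965 to 324338254, with a log2 difference of −1.07, and on 5q, segment 1, from 65490100 to 65490216, with −0.84. At the 5q site the areas as deposited overlapped, at 51.1 and 42.2 in systemically activated libraries and 70.1 and 48.6 in intact libraries.

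In the opposite direction, the site on 1q, segment 2, from 409108915 to 409109808 had areas of 247 and 341 in systemically activated libraries and 29.5 and 38.7 in intact libraries. The log2 difference was 2.87 (SE 0.42, limma adjusted p = 0.203), and 0.58 when area was divided by width. The intact areas at this 1q site lay near the smallest listed area of 20.0. Within the run of 12 sites on 5q, segment 0, the site from 58606736 to 58607206 had areas of 320 and 218 in systemically activated libraries and 71.6 and 68.5 in intact libraries, a log2 difference of 1.64 (SE 0.30), which was 0.13 when area was divided by width. Further sites of this direction were on 6p, segment 1, from 337543941 to 337544487 (log2 difference 1.13), on 13q from 379956099 to 379956487 (1.44) and on 7q, segment 2, from 345887815 to 345888273 (0.98). Normalised areas of the groups overlapped at none of these 10 sites, and the sites were picked for their small p. Quantile normalisation put the median difference of all 180 sites at 0.023, and median centring put it at 0.22. The 10 sites kept their direction under median centring, where the 5q segment 1 site was at −0.024, and with area divided by width. Division by width gave differences more than 1.5 times smaller at all of them but the 6p site, such as −1.47 at the 7p site, −0.74 at the 9q site and −1.01 at the 7q site from 355025474.

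**Figure D5:**
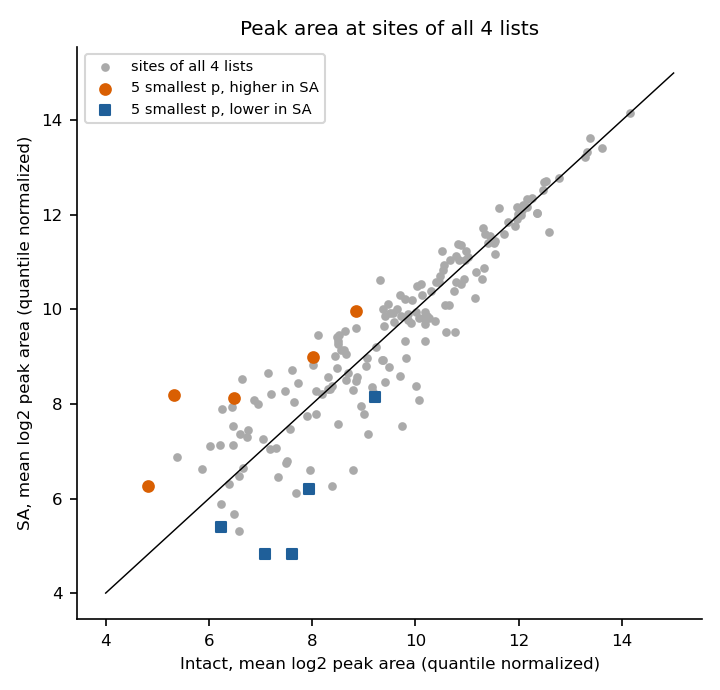
Mean log2 peak area after quantile normalisation at the 180 sites of all 4 lists, systemically activated (vertical axis, n = 2) against intact (horizontal axis, n = 2), with the line of equality. Orange circles and blue squares are the 5 sites with the smallest p in each direction; their log2 differences run from 0.98 to 2.87 and from −0.84 to −2.80, and none has an adjusted p under 0.05.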

How the data were processed

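Groups came from the sample descriptions. Per the submitters' processing notes the tools include Bowtie2 2.3.2 and Genrich 0.5; genome build, settings, Tn5 shift and duplicate handling are not given in the sources used here. Peaks were listed per library. The deposited score (column 5) equalled area per bp times 1000, capped at 1000, within 1 unit in 100% of records and was not used. The authors' signal value (column 7, at least 20.0) was read as peak area, and the −log10 p and q columns, as deposited, belong to the summit. None of these is scaled between libraries. No gene was assigned, since the build of the gene table on hand could not be matched.

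Sites, arms, runs and distances were computed with Python 3.11.15, pandas 2.3.3 and SciPy 1.17.1, and areas were tested with limma 3.58.1 in R 4.3.3, after a test on simulated data. A site's rank is that of its strongest peak, its area the sum of its peaks. Named were the 10 strongest sites of each arrangement, the 5 strongest in equal lists, the 5 shared sites of smallest p per direction, the 5 longest runs of 2 classes and the 3 arms of largest difference per direction. The lists compared and the rules were chosen with earlier results of these data known. Merged spacing and widths, arms outside shared sites and all settings of the shares within 100 kb were added after the data were seen.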

Additional observations from a re-analysis of the deposited data

How the results depend on the processing

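No paired analysis was possible because systemically activated and intact libraries share no replicate numbers. The excess of peaks (log2 difference 2.40) kept its direction in 8 of 10 settings, 1.86 to 2.95 with a library left out, and turned to −0.052 and −0.36 at a −log10 q of at least 3 and 5. Width (−0.26) turned to 0.62 in equal lists and 0.20 at the widest peaks of shared sites, and ran from −0.53 to 0.011 with a library left out. The 635 systemically activated sites became 29 in equal lists, 18 ranked by −log10 p, 12 with 200 peaks, 101 and 8 at a −log10 q of at least 2 and 3, and 645 to 2591 with a library left out. The 18 intact sites became 29 in equal lists by either ranking, 5 at a −log10 q of at least 3, and 27 to 106 with a library left out. In all of these, fewer peaks or fewer lists enter by construction. The share of systemically activated sites within 100 kb of a shared site moved to 6.90% in equal lists and 0.821% with a gap of 500 bp. Spacing kept its direction in 9 of 9 settings, classes of arms without overlap numbered 17 to 29 in the 8 settings, and limma called 0 sites in all 8 settings (18 to 46 at an unadjusted p under 0.05). Peak number and spacing did not overlap between the groups, so leaving out a library could not turn their direction. The 10 named shared sites, picked for their small p, kept their direction in 79 of 79 values. That choice favours this outcome, above all where a library was left out. In the settings with all 4 libraries their limma adjusted p ran from 0.105 to 0.934. Their sizes were not stable: divided by width, the areas gave 0.13 to 0.90 in place of 0.98 to 2.87 at the 5 higher sites, and −0.40 to −1.47 in place of −0.84 to −2.80 at the 5 lower sites. The cause was not tested. Where a library was left out of the limma fit, the lone one was assumed to vary like the others.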

Other observations

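The blastema libraries took no part in defining the sites above. In lists of equal length, 2 of 29 systemically activated sites (6.90%, Wilson 95% interval 1.91 to 21.96) had a peak in a blastema list, against 16 of 29 intact sites (55.2%, 37.5 to 71.6) and 153 of 154 sites of all 4 lists (99.4%, 96.4 to 99.9). In full lists the share was 1.57% of the 635 systemically activated sites and 33.3% of the 18 intact sites. The blastema lists held 248 and 258 peaks, so few of them could match a weak site, and the sites of a set are not independent of each other.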
